A study of Homo sapiens with 18 samples.

Results

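The MYC, MAX and MXD network was followed as 10 genes: MYC, MYCN and MYCL, their shared partner MAX, the repressors MXD1, MXI1, MXD3 and MXD4, MNT, and the related factor MLX. Members were taken by gene symbol, and all 10 were found among the 28277 genes of the count table. Of these, 9 passed the filter on low counts and were tested among 14938 genes, and MYCN did not pass.

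All members are transcription factors of the basic helix-loop-helix leucine zipper class. MYC proteins bind DNA at E-boxes as heterodimers with MAX and recruit coactivators, whereas the MXD proteins and MNT compete for MAX and recruit the SIN3 corepressor with its histone deacetylases. MLX is a MAX-like protein that pairs either with some of the repressors or with the glucose-sensing factors MondoA (MLXIP) and ChREBP (MLXIPL). HIF factors, which are stabilised when oxygen is low, are known to act on several members.

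RNA-seq was performed on OVCAR3, an established line of high-grade serous ovarian carcinoma. All groups carried dCas9-KRAB, a nuclease-dead Cas9 fused to a transcriptional repressor, and were monoclonal. The sgCtl cells (sgControl in the labels) had a control sgRNA against Gal4, and the sgXIST7 and sgXIST9 cells had different sgRNAs against the promoter of XIST, the long noncoding RNA that silences an X chromosome, and were picked as clones after KD. Hypoxia meant 24 h at 1% oxygen, and there were 3 libraries in each of the 6 groups, described by the study as biological replicates. Whether these were separate cultures or clones is not given in the sources used here, so p-values measure only the spread between these libraries, and the effect of a guide cannot be told apart from that of the clone that carries it.

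Libraries held 11794375 to 24906936 counts. The targeted gene XIST had 4213 to 11209 counts per library in sgCtl in normoxia, 1 to 5 in sgXIST7 and 650 to 1009 in sgXIST9, and 1589 to 5014, 0 to 3 and 357 to 510 in hypoxia. Of 10 genes known to rise in hypoxia, 8 were up-regulated (by the limits given below) in sgCtl, 9 in sgXIST7 and 9 in sgXIST9. Of all genes, 11.3%, 15.1% and 14.7% were. Of 8 epithelial markers looked for in OVCAR3, EPCAM, KRT8, KRT18 and PAX8 had counts in every library, whereas WT1, MUC16, KRT7 and CDH1 were absent or near 0, with at most 14 counts in a library. The name OVCAR3 is that of the labels and the study, and the identity of the line was not tested here. Among markers of other cell types, only CD68, a lysosomal protein of macrophages that many lines express, had counts in every library, and the summed level of all 6 ranged from 11.5 to 56.5 CPM. CD68 fell in hypoxia in sgXIST9 (log2 -1.35), with -0.75 and -0.53 in sgCtl and sgXIST7, and the epithelial markers KRT8 fell in sgCtl (-1.06) and PAX8 rose in sgXIST7 (1.54), whose part in the results was not tested. In sgCtl and sgXIST9, the replicate 3 library of the hypoxia group stood apart. Its log2 levels differed from those of replicates 1 and 2 with an SD over genes of 0.55 to 0.84, against 0.41 to 0.44 between these 2. In sgXIST7 the SDs were 0.64 and 0.51, against 0.45, and its normoxia replicates 1 and 2 also differed by 0.51. By a chi-square of the counts per degree of freedom, its hypoxia replicates 2 and 3 were the closest pair (20.7, against 30.1 and 42.6). Replicate 3 had the fewest counts of the hypoxia libraries in each clone (12042716, 13483871 and 16208517). Calls of members that change without these 3 libraries are given both ways.

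A gene was called up-regulated or down-regulated at an adjusted p under 0.01 (edgeR quasi-likelihood test, Benjamini-Hochberg adjustment) with an absolute log2 fold change above 1. In hypoxia against normoxia, 4 of the 9 tested members were called in sgCtl, where 19.7% of all genes were called. In sgXIST7 it was 5 of 9 against 27.3% of all genes, and in sgXIST9 6 of 9 against 23.3%. Without the fold limit, 5, 7 and 7 members passed, against 37.6%, 46.7% and 42.1% of all genes. The called members were mostly repressors. MXI1 and MXD1 were called up and MXD3 down in each clone, MXD4 up in sgCtl and sgXIST9, and MNT and MYCL up in the XIST KD clones. Short of the call limits, MXD4 also rose in sgXIST7 (log2 0.96), and MNT (0.61) and MYCL (0.76) in sgCtl. MYC itself was not called in any clone. On the log2 scale the 9 members had medians of 0.76, 0.96 and 1.00, against medians of 0.02, 0.01 and 0.09 over all genes. The plot of the hypoxia response by clone gives each member with its interval.

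**Figure D1:**
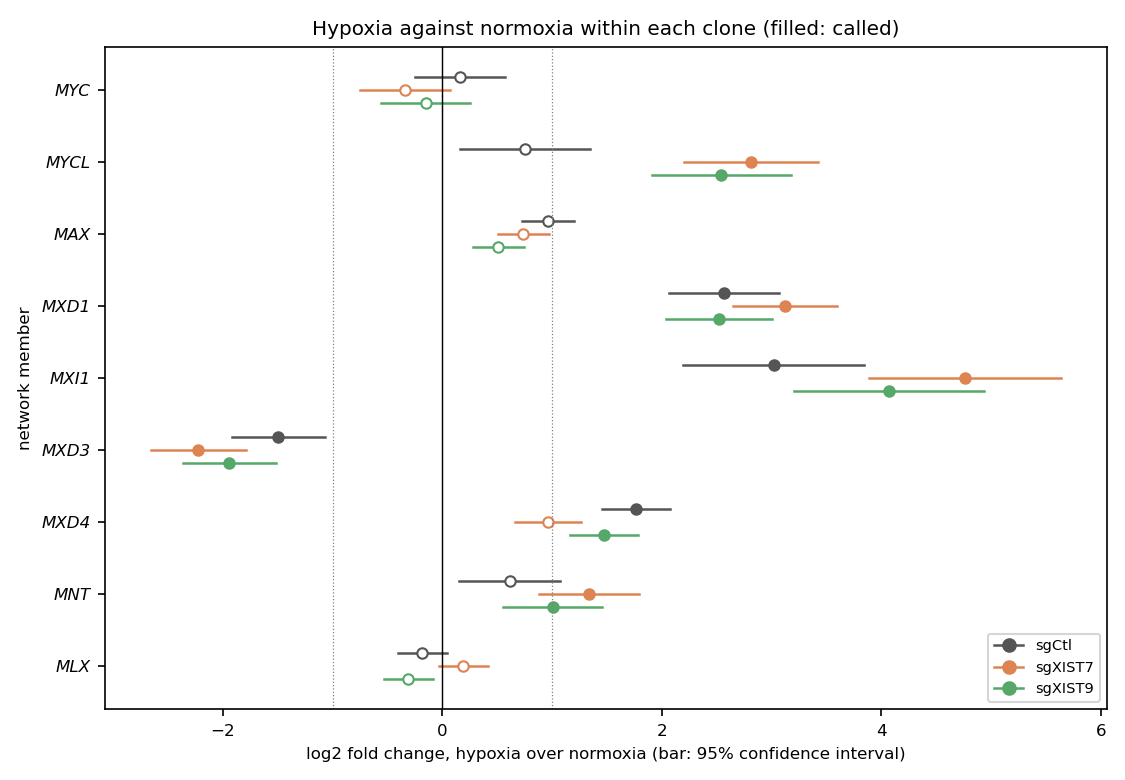
Log2 fold change of the 9 tested members in hypoxia against normoxia (x axis) in sgCtl, sgXIST7 and sgXIST9, with 95% confidence intervals as bars, filled circles for called members and dotted lines at log2 fold changes of 1 and -1. MXI1 (3.02 to 4.77) lies farthest to the right and MXD3 (-1.49 to -2.22) farthest to the left in all 3 clones, MXD1 lies at 2.52 to 3.12, while the intervals of MYC hold 0.

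MYC (chromosome 8, 127735434 to 127742951, plus strand, in hg38 as listed in the count table), the oncoprotein that drives growth and ribosome production, was the main MYC family mRNA throughout. In sgCtl it stood at 70.7, 71.2 and 77.3 CPM (counts relative to the scaled library total) in normoxia and at 69.8, 107 and 67.9 CPM in hypoxia. In sgXIST7 the values were 93.4, 77.6 and 106 CPM in normoxia and 77.9, 59.5 and 81.7 CPM in hypoxia. In sgXIST9 they were 105, 120 and 106 CPM in normoxia and 85.9, 130 and 81.7 CPM in hypoxia. Normoxia and hypoxia overlapped in all 3 clones, and a high replicate 2 library widened the hypoxia group in sgCtl and in sgXIST9. The log2 fold change was 0.16 (95% CI -0.25 to 0.57, adjusted p = 0.51) in sgCtl, -0.34 (-0.75 to 0.07, 0.14) in sgXIST7 and -0.15 (-0.56 to 0.25, 0.53) in sgXIST9. In sgCtl its sign rested on that replicate 2 library, without which it was -0.09.

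Between clones, every normoxia library of both KD clones lay above those of sgCtl for MYC, but the log2 difference of 0.59 (95% CI 0.19 to 1.00) in sgXIST9 had an adjusted p of 0.036. It was 0.34 (adjusted p = 0.25) for sgXIST7 in normoxia, -0.17 (0.51) for sgXIST7 in hypoxia and 0.28 (0.30) for sgXIST9 in hypoxia, and -0.45 (0.12) for sgXIST7 against sgXIST9 in hypoxia. Without the sgCtl hypoxia replicate 2 library the hypoxia difference of sgXIST7 was 0.08. PVT1, a noncoding RNA transcribed next to MYC, had 11.3 to 15.8 CPM as group means and log2 fold changes in hypoxia of -0.23, -0.44 and -0.11 in sgCtl, sgXIST7 and sgXIST9, none of which was called. CCAT1, another neighbour of MYC, had at most 1 count in a library.

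MYCL (chromosome 1, 39895428 to 39901917, minus strand), the family member first described in small cell lung cancer, was low in normoxia and was, with all libraries, the only member whose response to hypoxia was called different between clones. Its levels in sgCtl were 3.82, 4.18 and 2.99 CPM in normoxia and 5.75, 5.56 and 7.27 CPM in hypoxia. In sgXIST7 they were 2.03, 2.28 and 1.22 CPM in normoxia and 9.46, 14.6 and 14.8 CPM in hypoxia. In sgXIST9 they were 1.12, 1.33 and 1.28 CPM in normoxia and 6.02, 5.45 and 10.4 CPM in hypoxia. Every hypoxia library lay above every normoxia library of its clone. The rise was 7.03-fold in sgXIST7 (log2 2.81, SE 0.29, adjusted p = 3.8e-07) and 5.83-fold in sgXIST9 (log2 2.54, SE 0.30, adjusted p = 2.3e-06), and in sgCtl the log2 fold change of 0.76 (SE 0.28) had an adjusted p of 0.032.

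In normoxia, MYCL was 2.93-fold lower in sgXIST9 than in sgCtl (log2 -1.55, adjusted p = 0.0012), and its difference of -0.99 in sgXIST7 had an adjusted p of 0.022. In hypoxia, it was 2.10-fold higher in sgXIST7 (log2 1.07, adjusted p = 0.0045) and had a log2 difference of 0.23 (95% CI -0.33 to 0.80) in sgXIST9, or -0.11 without the sgXIST9 hypoxia replicate 3 library. The sgXIST7 call in hypoxia was lost without replicate 1 or 2 of sgCtl or replicate 2 or 3 of sgXIST7, all in hypoxia, with log2 values down to 0.96 and adjusted p up to 0.023, and in a fit of those groups alone (0.019). The test of the difference between the responses called MYCL for sgXIST7 against sgCtl, at a log2 difference of 2.06 (95% CI 1.22 to 2.90, adjusted p = 0.0061), and it was the only member called where 1.52% of all genes were. For sgXIST9 the difference was 1.79 (95% CI 0.93 to 2.65, adjusted p = 0.017), with 0 members called against 1.01% of all genes, 2 members at an unadjusted p under 0.05, and 1 member, MYCL, called by DESeq2 (1.74, adjusted p = 0.0025). Without the replicate 3 hypoxia libraries edgeR called MYCL there as well (1.57, adjusted p = 0.0066), as it did without that of sgCtl alone (1.91, adjusted p = 0.0058). The sgXIST7 call was lost in 11 of the 18 fits without a library, with adjusted p up to 0.021: those without any normoxia library of sgCtl, its hypoxia replicates 1 or 2, the sgXIST7 normoxia replicates 1 or 3 or hypoxia replicates 2 or 3, or the sgXIST9 normoxia replicates 2 or 3. It was also lost in a fit of the 4 groups alone (0.013), and the log2 difference stayed between 1.83 and 2.24 in the fits without a library. Both KD contrasts share the sgCtl libraries.

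MYCN (chromosome 2, 15940550 to 15947003, plus strand), the family member of neuroblastoma, was at the limit of detection. In normoxia it had 1 count in a single sgCtl library and 0 in the other 8. In hypoxia it had 4, 2 and 3 counts in sgCtl, 2, 7 and 5 in sgXIST7, and 0, 1 and 0 in sgXIST9. MYCN did not pass the filter on low counts, and with genes of at least 1 count kept it was called in hypoxia in sgXIST7 and in no other comparison. A total of 3 counts, the limit that a count of 0 allows, corresponded to 0.13 to 0.27 CPM in a library (counting error only). Its exons overlap those of the antisense RNA MYCNOS, which had at most 2 counts in a library, as had MYCNUT, a noncoding neighbour.

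MAX (chromosome 14, 65006101 to 65102695, minus strand), the shared partner of MYC, MXD and MNT proteins, rose in each clone by less than the fold limit. It stood at 23.8, 23.9 and 28.5 CPM in sgCtl in normoxia and at 50.005, 55.7 and 42.4 CPM in hypoxia. In sgXIST7 it was at 26.6, 24.7 and 28.0 CPM in normoxia and at 44.9, 43.1 and 44.1 CPM in hypoxia. In sgXIST9 it was at 29.1, 32.4 and 33.0 CPM in normoxia and at 45.2, 45.6 and 43.5 CPM in hypoxia. The conditions did not overlap in any clone, and the hypoxia libraries of the KD clones spanned only 43.1 to 45.6 CPM. The increase was 1.94-fold in sgCtl (log2 0.96, 95% CI 0.72 to 1.195, adjusted p = 2.8e-06), 1.67-fold in sgXIST7 (adjusted p = 2.4e-05) and 1.42-fold in sgXIST9 (adjusted p = 9.0e-04). Without the replicate 3 hypoxia libraries the log2 fold change in sgCtl was 1.06, past the limit, as it was (1.05) without the sgCtl normoxia replicate 3 library. No difference of MAX between clones passed the test, the nearest being sgXIST9 over sgCtl in normoxia (log2 0.31, adjusted p = 0.059). Its exons overlap an uncharacterised gene on the opposite strand, LOC100506321.

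**Figure D2:**
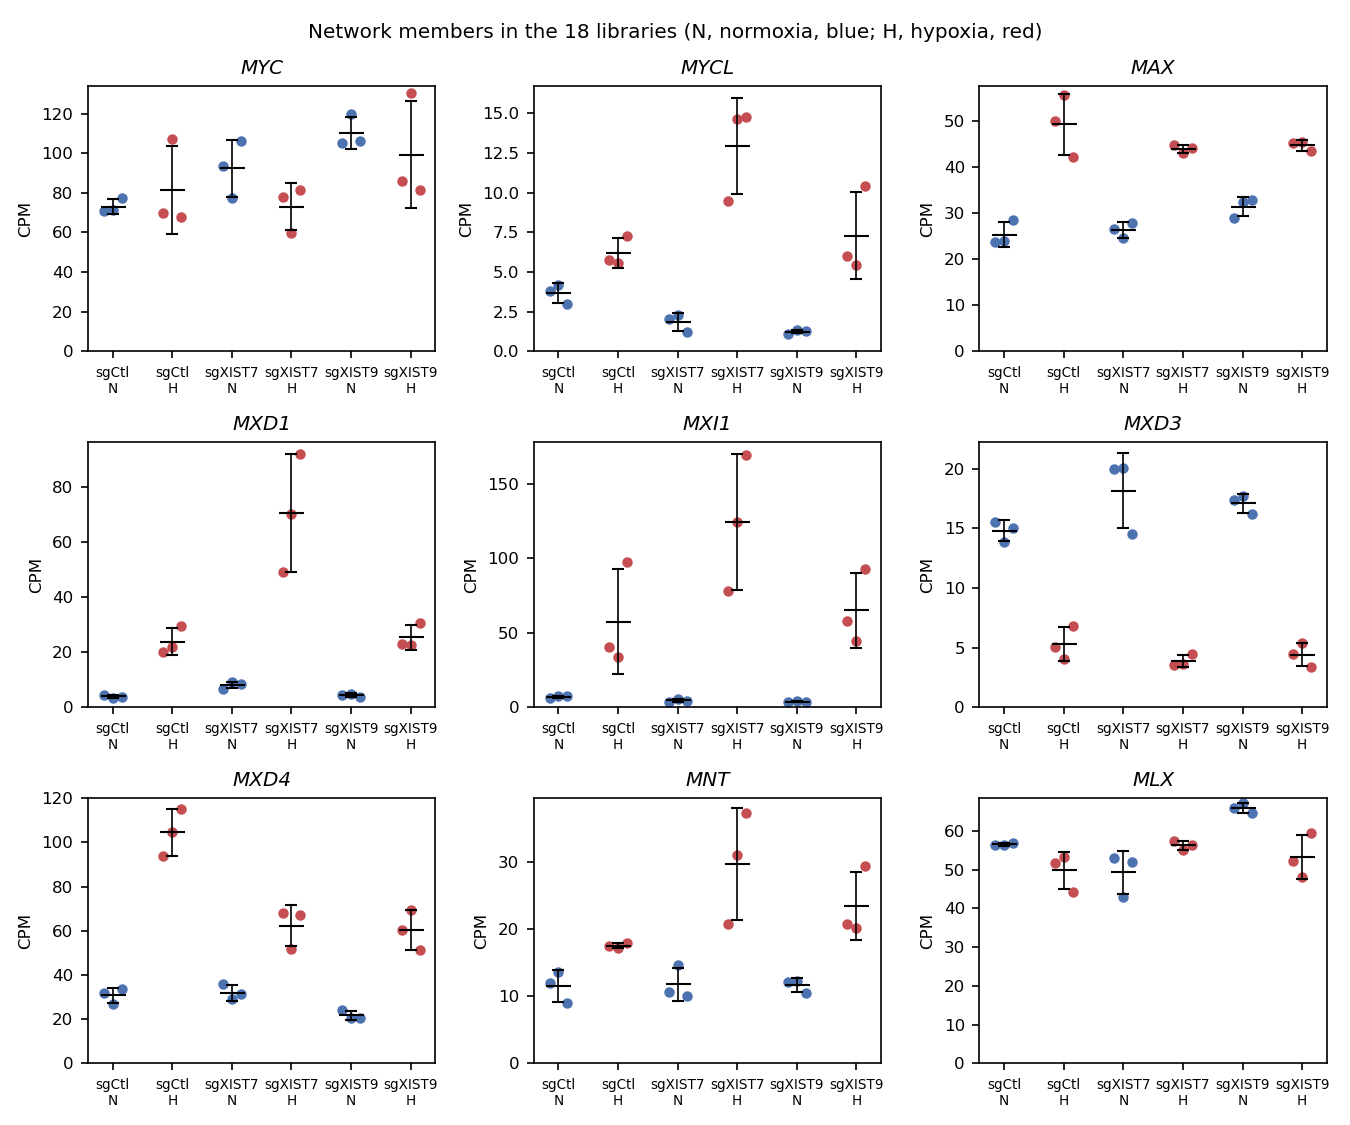
CPM of the 9 tested members (y axes from 0, 1 panel per member) in the 18 libraries, grouped by clone and by normoxia (N, blue) or hypoxia (H, red), with horizontal marks and bars for the mean ± SD of 3 libraries. MXI1 and MXD1 rise from under 10 CPM to between 20.002 and 169 CPM, MXD3 falls to between 3.41 and 6.82 CPM, and MYC overlaps between the conditions.

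MXI1 (chromosome 10, 110207605 to 110287365, plus strand), a repressor that antagonises MYC and is a known HIF target, had the largest response of the 9 tested members in each clone. In sgCtl its levels were 6.04, 7.27 and 7.75 CPM in normoxia and 40.4, 34.0 and 97.7 CPM in hypoxia. In sgXIST7 they were 3.72, 5.78 and 4.23 CPM in normoxia and 78.2, 124 and 169 CPM in hypoxia. In sgXIST9 they were 3.57, 4.36 and 3.62 CPM in normoxia and 57.8, 44.2 and 92.8 CPM in hypoxia. Replicate 3 was the highest hypoxia library in each clone, and the conditions were far apart in all of them. The fold was 8.11 in sgCtl (log2 3.02, SE 0.39, adjusted p = 8.6e-06), 27.2 in sgXIST7 (log2 4.77, SE 0.41, adjusted p = 6.0e-08) and 16.8 in sgXIST9 (log2 4.07, SE 0.41, adjusted p = 4.2e-07). Without the replicate 3 hypoxia libraries, the log2 values were 2.41, 4.49 and 3.73.

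Whether MXI1 responded more strongly in the KD clones depended on these libraries. With all 18, the response of sgXIST7 exceeded that of sgCtl by 1.75 on the log2 scale (95% CI 0.62 to 2.88) at an adjusted p of 0.0497, and that of sgXIST9 by 1.05 (95% CI -0.09 to 2.19, adjusted p = 0.27). Without the replicate 3 hypoxia libraries the differences were 2.09 (adjusted p = 0.000139) and 1.33 (adjusted p = 0.0060), both called. In hypoxia, sgXIST7 was above sgCtl by 1.12 (adjusted p = 0.017) with overlap, and by 1.73 (adjusted p = 2.4e-04) when the sgCtl replicate 3 library was left out, or 1.45 (adjusted p = 3.4e-05) without all the replicate 3 hypoxia libraries. Without the sgXIST7 hypoxia replicate 1 library it was 1.36 (adjusted p = 0.0066), and DESeq2 called it with all libraries (1.12, adjusted p = 0.0066).

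MXD1 (MAD1, chromosome 2, 69915041 to 69942944, plus strand), a repressor induced in differentiation, rose in each clone and was highest in sgXIST7. Its levels in sgCtl were 4.49, 3.56 and 3.90 CPM in normoxia and 20.002, 21.98 and 29.3 CPM in hypoxia. In sgXIST7 they were 6.75, 9.16 and 8.37 CPM in normoxia and 49.1, 70.3 and 91.9 CPM in hypoxia. In sgXIST9 they were 4.55, 4.99 and 3.68 CPM in normoxia and 23.1, 22.5 and 30.6 CPM in hypoxia. The sgXIST9 values overlapped those of sgCtl, whereas every sgXIST7 library exceeded every library of both other clones under the same oxygen. The rise in hypoxia was 5.93-fold in sgCtl (adjusted p = 2.2e-07), 8.70-fold in sgXIST7 (adjusted p = 6.7e-09) and 5.73-fold in sgXIST9 (adjusted p = 1.2e-07).

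In normoxia MXD1 was 2.02-fold higher in sgXIST7 than in sgCtl (log2 1.02, SE 0.24, adjusted p = 0.0046), the only member called where 7.76% of all genes were, and in sgXIST9 its log2 difference was 0.15 (95% CI -0.37 to 0.66). The normoxia call lay close to both limits and was lost in 5 of the 18 fits without a library, those without any of the 3 sgCtl normoxia libraries or without replicate 2 or 3 of sgXIST7, with log2 values down to 0.92 and adjusted p up to 0.024. In hypoxia the difference of sgXIST7 was 2.97-fold (log2 1.57, SE 0.21, adjusted p = 2.1e-05). It also exceeded sgXIST9 in hypoxia by 2.77-fold (log2 1.47, adjusted p = 1.1e-04), the only member called between the KD clones, against 4.46% of all genes. In a fit of those groups alone that adjusted p was 0.0100348.

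MXD4 (chromosome 4, 2247432 to 2262109, minus strand), a repressor linked to growth arrest, and MXD3 (chromosome 5, 177305499 to 177311898, minus strand), which is expressed in S phase of dividing cells, moved in opposite directions. MXD4 was at 31.6, 27.0 and 33.8 CPM in sgCtl in normoxia and at 93.9, 105 and 115 CPM in hypoxia. It was at 36.02, 28.9 and 31.2 CPM, and at 67.8, 51.9 and 67.3 CPM, in sgXIST7. It was at 24.1, 20.4 and 20.7 CPM, and at 60.3, 69.3 and 51.4 CPM, in sgXIST9. The conditions did not overlap in any clone, and every sgCtl hypoxia library lay above every hypoxia library of the KD clones. The rise was 3.39-fold in sgCtl (adjusted p = 6.8e-08), 1.94-fold in sgXIST7 (log2 0.96, adjusted p = 2.2e-05, under the fold limit) and 2.77-fold in sgXIST9 (adjusted p = 3.1e-07). Without the sgXIST7 normoxia replicate 1 or hypoxia replicate 2 library its log2 value in sgXIST7 was 1.05 or 1.08, past the limit. In hypoxia, MXD4 was lower than in sgCtl by a log2 difference of -0.75 in sgXIST7 (adjusted p = 5.1e-04) and of -0.79 in sgXIST9 (adjusted p = 4.0e-04), also under the fold limit. The smaller response of sgXIST7 had a difference of -0.80 (95% CI -1.23 to -0.38) and an adjusted p of 0.022.

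MXD3 was down-regulated in each clone. It was at 15.6, 13.8 and 15.04 CPM in sgCtl in normoxia and at 5.06, 4.07 and 6.82 CPM in hypoxia. In the KD clones its normoxia libraries ranged from 14.5 to 20.05 CPM and its hypoxia libraries from 3.41 to 5.40 CPM. No hypoxia library reached any normoxia library. The fall was 2.82-fold in sgCtl (log2 -1.49, SE 0.20, adjusted p = 1.3e-05), 4.67-fold in sgXIST7 (log2 -2.22, adjusted p = 1.1e-07) and 3.85-fold in sgXIST9 (log2 -1.94, adjusted p = 5.2e-07). Its exons overlap those of PRELID1 on the opposite strand, and without the strand setting of the counting the reads of this pair cannot be told apart.

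For the 4 MXD genes, the 250 bases before a RefSeq transcription start (GRCh38.p14) are shown for each, 5′ to 3′ on the strand of the gene. Capitals mark ACGTG or GCGTG on either strand, the core letters of the hypoxia response element, or the E-box CACGTG, which contains ACGTG and reads the same on both strands. For MXI1 (chr10:110209981-110210230, plus strand) the table held 3 starts, and the one shown is the one with ACGTG. The others were MXD1 (chr2:69914859-69915108, plus strand), MXD4 (chr4:2262110-2262359, minus strand) and MXD3 (chr5:177312753-177313002, minus strand).
MXI1: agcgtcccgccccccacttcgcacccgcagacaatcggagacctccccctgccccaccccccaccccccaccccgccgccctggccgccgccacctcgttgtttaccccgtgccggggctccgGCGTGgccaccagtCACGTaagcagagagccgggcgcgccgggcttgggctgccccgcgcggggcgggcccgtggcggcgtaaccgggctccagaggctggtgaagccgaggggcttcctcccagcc
MXD1: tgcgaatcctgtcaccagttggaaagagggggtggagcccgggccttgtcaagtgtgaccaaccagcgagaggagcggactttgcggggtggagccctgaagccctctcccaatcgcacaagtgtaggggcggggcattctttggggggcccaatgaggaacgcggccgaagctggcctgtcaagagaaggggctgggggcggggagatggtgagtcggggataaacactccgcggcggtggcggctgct
MXD4: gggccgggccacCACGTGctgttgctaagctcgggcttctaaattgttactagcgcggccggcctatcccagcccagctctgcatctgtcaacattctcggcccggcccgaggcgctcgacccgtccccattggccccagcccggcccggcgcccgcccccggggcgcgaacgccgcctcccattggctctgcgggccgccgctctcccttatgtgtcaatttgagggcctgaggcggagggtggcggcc
MXD3: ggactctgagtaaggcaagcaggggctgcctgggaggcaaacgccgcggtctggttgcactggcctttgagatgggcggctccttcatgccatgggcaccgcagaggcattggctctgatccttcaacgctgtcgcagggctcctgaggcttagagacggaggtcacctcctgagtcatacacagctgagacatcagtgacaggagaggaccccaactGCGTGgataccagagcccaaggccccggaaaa
MXI1 held GCGTG and ACGTG (the latter on the opposite strand), MXD4 an E-box, MXD3 GCGTG, and MXD1 none of these letters. Of 35116 such windows over all genes, 43.2% held ACGTG or GCGTG and 6.34% CACGTG. Of the 12 windows of the members, 7 held ACGTG or GCGTG and 3 held CACGTG. Whether these shares differ from those over all genes was not tested. Over the 9 members in the table, 6 had ACGTG or GCGTG in at least 1 window, and MXD4, MNT and MLX had CACGTG. MNT and MYCL, which were also called in hypoxia in both KD clones, are not shown, and MYCL held none of these letters. The RefSeq start of MXD3 lies upstream of the exons in the count table. The gene counts do not show which start was used, and a relation of these letters to the responses was not tested.

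MNT (chromosome 17, 2384073 to 2401060, minus strand), the MAX partner found in most cell types, which represses MYC targets, was called up-regulated in hypoxia in the KD clones. It was at 11.9, 13.7 and 8.96 CPM in sgCtl in normoxia and at 17.5, 17.3 and 17.99 CPM in hypoxia. In sgXIST7 it was at 10.6, 14.6 and 10.1 CPM in normoxia and at 20.8, 31.2 and 37.4 CPM in hypoxia. In sgXIST9 it was at 12.2, 12.3 and 10.5 CPM in normoxia and at 20.9, 20.2 and 29.4 CPM in hypoxia. Normoxia levels overlapped between the 3 clones, and every hypoxia library of the KD clones lay above the sgCtl hypoxia libraries. The increase was 2.53-fold in sgXIST7 (log2 1.34, adjusted p = 4.8e-05) and 2.01-fold in sgXIST9 (log2 1.00, adjusted p = 8.0e-04), and in sgCtl the log2 fold change of 0.61 had an adjusted p of 0.027. The sgXIST9 call sat on the fold limit and was lost with DESeq2 (0.98), RLE scaling (0.98), a fit of the compared groups alone (0.98) and a replicate block (1.00, just under the limit). Without the replicate 3 hypoxia libraries its log2 value was 0.82, and without the sgXIST9 normoxia replicate 3 library 0.93. In hypoxia, MNT was higher in sgXIST7 than in sgCtl by 0.76 on the log2 scale (adjusted p = 0.0090), with adjusted p up to 0.058 in fits without a library and 0.027 (log2 0.58) without the replicate 3 hypoxia libraries. The difference between those responses, 0.73, had an adjusted p of 0.14.

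MLX (chromosome 17, 42567060 to 42573203, plus strand), the partner of MondoA and ChREBP, was called in no comparison by edgeR. Its libraries ranged from 42.9 to 67.2 CPM over all groups. The log2 fold change in hypoxia was -0.18 (adjusted p = 0.16) in sgCtl, 0.19 (0.13) in sgXIST7 and -0.31 (0.019) in sgXIST9. Its exons overlap those of PSMC3IP on the opposite strand.

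The calls in the KD clones against sgCtl, out of 9 tested members, are given beside the share over all genes. In normoxia 1 member was called for each guide, MXD1 for sgXIST7 and MYCL for sgXIST9, the latter against 7.70% of all genes. In hypoxia 2 members, MYCL and MXD1, were called for sgXIST7, against 14.0% of all genes, and 4 passed without the fold limit, against 27.6%. For sgXIST9 in hypoxia edgeR called 0 members, against 9.53% of all genes, with 1 at an unadjusted p under 0.05, and DESeq2 called 0. Between sgXIST7 and sgXIST9 in normoxia 0 members were called by either tool, against 3.40% of all genes, with 4 at an unadjusted p under 0.05. Their hypoxia responses differed for 0 members by either tool, against 0.167% of all genes, with 2 at an unadjusted p under 0.05. Below the call limits, MXD4 was lower in sgXIST9 than in sgCtl in normoxia by -0.50 on the log2 scale (adjusted p = 0.019). Between sgXIST7 and sgXIST9 in normoxia the log2 difference was 0.87 for MXD1 (adjusted p = 0.022), 0.56 for MXD4 (0.020) and -0.42 for MLX (0.016), and in hypoxia 0.83 for MYCL (0.037). Without the replicate 3 hypoxia libraries that MYCL difference was called (1.08, adjusted p = 0.0057), as it was without that of sgXIST9 alone (1.17, adjusted p = 0.0044). With 3 libraries a side, an exact permutation test of a single value cannot go below 0.1, so these calls rest on the spread shared across genes. All contrasts with sgCtl under one oxygen level share its libraries.

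**Figure D3:**
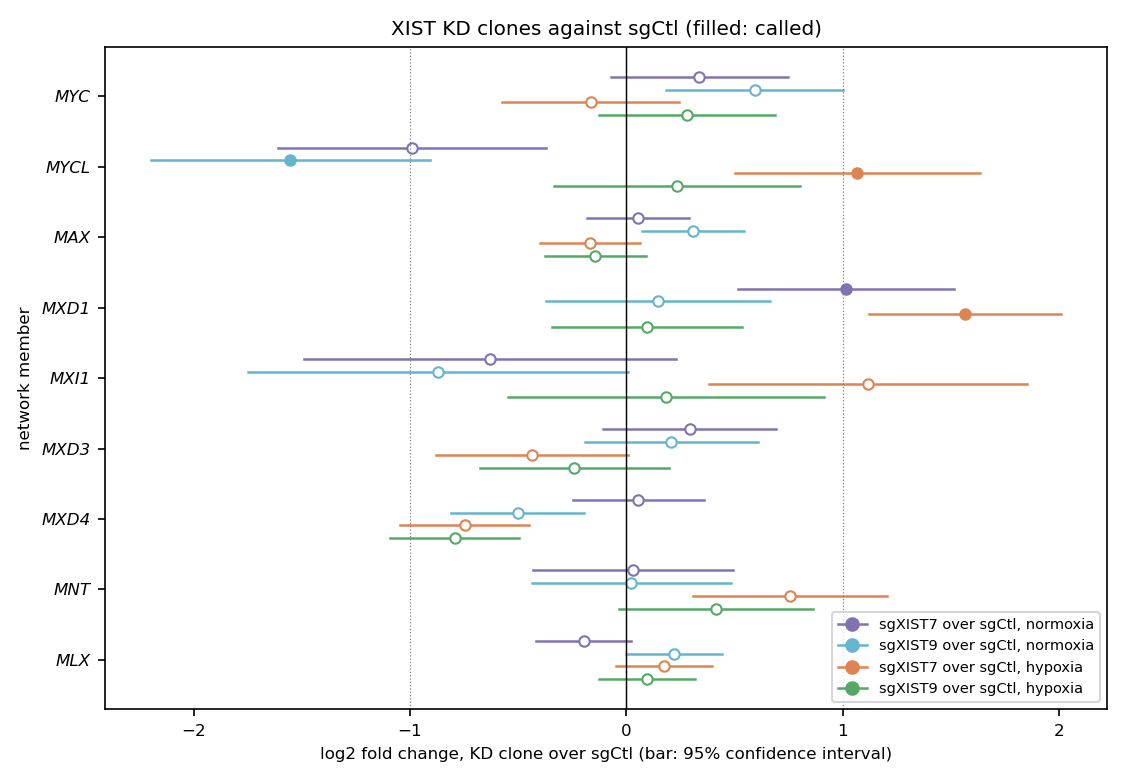
Log2 fold change of the 9 tested members in the KD clones over sgCtl (x axis), in normoxia and in hypoxia, with 95% confidence intervals as bars and filled circles for called members. MYCL lies left of 0 in normoxia (-0.99 and -1.55) and right of it in hypoxia (1.07 and 0.23), MXD1 lies right of 1 only in sgXIST7 (1.02 and 1.57), and MYC lies between -0.17 and 0.59.

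Levels of different members were compared per length, as RPKM (CPM per kilobase of exon). In sgCtl in normoxia the order of the mean levels was MLX (22.1), MYC (16.2), MAX (8.36), MXD4 (7.95), MXD3 (5.36), MNT (2.34), MXI1 (1.83), MYCL (0.755), MXD1 (0.710) and MYCN (0.0088), where MAX and MXD4, MNT and MXI1, and MYCL and MXD1 overlapped between libraries. In hypoxia MXD4 led in sgCtl with an RPKM of 27.0, MXI1 in sgXIST7 with 32.3 and MYC in sgXIST9 with 21.99. In sgXIST7 MXI1 overlapped with MLX, and in sgXIST9 the neighbours from MYC through MLX, MXI1 and MXD4 to MAX overlapped. MXD3 ranked below MNT in every hypoxia group and above it in every normoxia group. The ranks were the same when plain library totals were used.

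The MYC family made up 39.4% ± 0.8 (SD, n = 3) of the summed RPKM of 9 MAX partners (3 MYC genes, 4 MXD genes, MNT and MGA) in sgCtl in normoxia and 25.3% ± 6.7 in hypoxia. In sgXIST7 its share was 42.9% ± 4.6 and 20.5% ± 3.4. In sgXIST9 it was 52.1% ± 2.2 and 31.8% ± 6.3. In each clone every hypoxia library lay below every normoxia library. The MXD family took 36.9% ± 2.0 in normoxia and 61.4% ± 9.2 in hypoxia in sgCtl. The corresponding shares were 36.2% ± 3.7 and 65.9% ± 4.7 in sgXIST7, and 28.7% ± 1.3 and 52.4% ± 6.2 in sgXIST9. The ratio of MYC family to MXD family RPKM fell accordingly, from 1.07 to 0.43 in sgCtl, from 1.204 to 0.31 in sgXIST7, and in sgXIST9 from 1.82 to 0.62. Within the MXD family, MXI1 went from 11.6% to 29.4% in sgCtl, in sgXIST7 from 6.84% to 50.7%, and in sgXIST9 from 7.38% to 42.9%. The ratio of MAX to the summed partners was 0.16 to 0.22 as a group mean. These shares compare mRNA, not protein, and are given without a test.

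**Figure D4:**
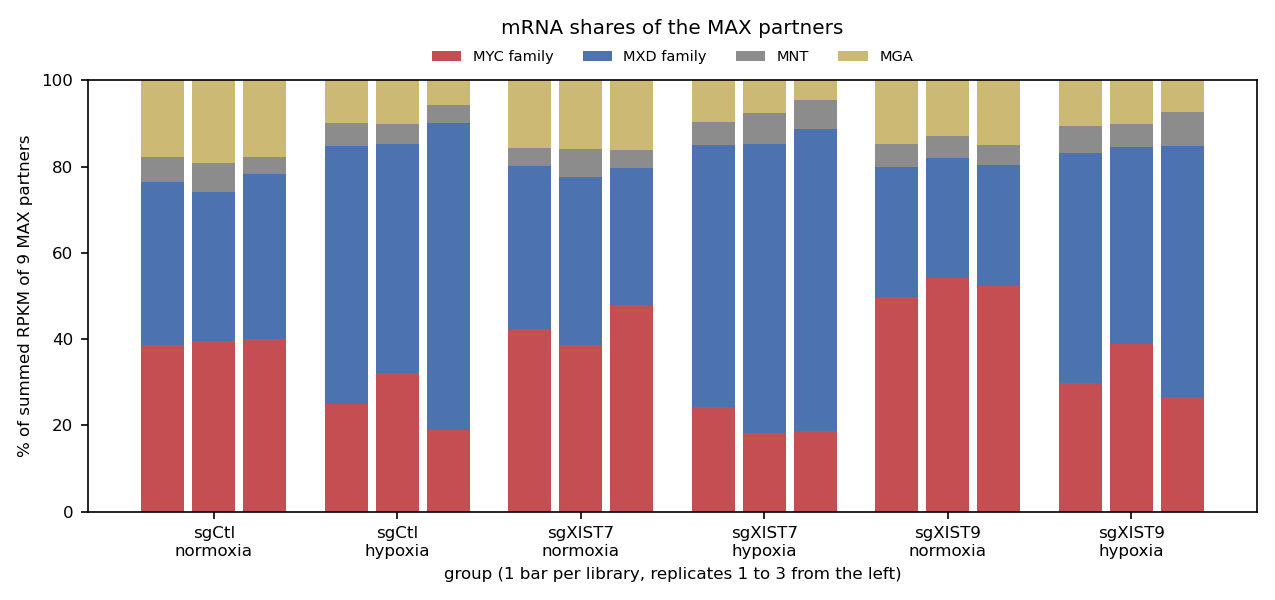
Share of the summed RPKM of 9 MAX partners (y axis, %) taken by the MYC family, the MXD family, MNT and MGA, 1 bar per library in the 6 groups. The MXD family takes 27.8% to 39.0% in normoxia libraries and 45.8% to 71.3% in hypoxia libraries.

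MGA, a large MAX partner that represses germ cell genes, had log2 fold changes in hypoxia of -0.26, -0.23 and 0.03 in sgCtl, sgXIST7 and sgXIST9, and MLXIP of 0.47, -0.59 and -0.22, none of them called. MLXIPL had 2.29 to 5.98 CPM as group means and was called higher than sgCtl in sgXIST7 in normoxia (log2 1.37, adjusted p = 0.0059) and in sgXIST9 in hypoxia (log2 1.38, adjusted p = 0.0046). Of 3 genes known to respond to MondoA and MLX, TXNIP, an inhibitor of glucose uptake, rose in each clone (log2 3.02, 2.15 and 1.99). ARRDC4 rose in sgXIST7 and sgXIST9 (2.68 and 2.63), with 1.26 (adjusted p = 0.011) in sgCtl, and KLF10 rose in sgCtl and sgXIST7 (1.39 and 2.08). Of all genes, 11.3% rose in hypoxia in sgCtl, 15.1% in sgXIST7 and 14.7% in sgXIST9.

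Among 14 genes of the SIN3 corepressor, through which MXD proteins act, 2 were up-regulated in hypoxia in sgCtl, 3 in sgXIST7 and 2 in sgXIST9, where 11.3%, 15.1% and 14.7% of all genes rose. SAP30, a subunit of the complex, rose in each clone (log2 2.54, 3.18 and 1.91). The 14 genes had medians of 0.01, 0.32 and 0.29. In sgCtl 1 fewer rose without the hypoxia replicate 2 library, and RBBP4, a histone-binding subunit, fell there at the fold limit (-1.02), a call lost without the sgCtl normoxia replicate 2 or hypoxia replicates 1 or 2. Among 14 coactivators of MYC, 0 were down-regulated in sgCtl, 4 in sgXIST7 and 3 in sgXIST9 (1 under upper-quartile scaling). Of all genes, 8.49%, 12.2% and 8.58% fell. These 14 had medians of 0.17, -0.009 and -0.003, with 7 higher and 7 lower in hypoxia in each KD clone. RUVBL1, an ATPase of chromatin complexes, fell in sgXIST7 and sgXIST9 (log2 -1.56 and -1.15), as did ACTL6A (-1.11 and -1.03) and WDR5, which tethers MYC to chromatin (-1.07 and -1.05). In sgCtl these 3 fell by less than the fold limit (log2 -0.82, -0.84 and -0.87). Of 14 genes that control MYC protein stability, 2 fell in sgCtl, 4 in sgXIST7 and 3 in sgXIST9, and 1 rose in each clone. Of all genes, 8.49%, 12.2% and 8.58% fell and 11.3%, 15.1% and 14.7% rose. CIP2A, which protects MYC from dephosphorylation, fell in each clone (log2 -1.23, -1.52 and -1.75), and AURKA fell in sgXIST7 and sgXIST9 (-1.75 and -2.14). USP28, a deubiquitinase of MYC, rose in each (1.27, 2.49 and 1.64). Without the sgCtl hypoxia replicate 3 library the USP28 call in sgCtl was lost. Without the sgCtl normoxia replicate 1 library the number of these 14 genes that fell in sgCtl went from 2 to 1.

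Of 40 tested genes known to be induced by MYC, 2 were down-regulated and 3 up-regulated in hypoxia in sgCtl, 16 and 4 in sgXIST7, and 15 and 2 in sgXIST9. Of all genes, 8.49%, 12.2% and 8.58% fell and 11.3%, 15.1% and 14.7% rose, so both counts in sgCtl and the rises in the other clones were at or below the share over all genes. Without the fold limit, 13, 25 and 24 of the 40 fell and 4, 5 and 2 rose. Of all genes, 37.6%, 46.7% and 42.1% passed at that adjusted p in either direction. The tests of a response different from that of sgCtl called 1 of the 40 lower for sgXIST7 and 2 for sgXIST9, and 0 higher. In those tests 1.52% and 1.01% of all genes were called in either direction. The list had medians of -0.40, -0.82 and -0.83 on the log2 scale. The members that fell included SLC19A1, the folate carrier (log2 -1.49, -2.26 and -1.81), and TMEM97, a sterol-regulated membrane protein (-1.37, -1.97 and -1.51). Those that rose included the glycolytic enzymes HK2 (4.34, 3.19 and 2.86) and LDHA (1.57, 1.46 and 1.54), which HIF is known to induce, and the cyclin CCND2 in sgCtl and sgXIST7 (4.23 and 4.15). The number that fell in sgCtl was 1 in 13 of the 18 fits without a library, at most 3 in the others, and 3 without the replicate 3 hypoxia libraries. In sgXIST7 the number that rose was 2 without its hypoxia replicate 3 library.

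Of 10 tested genes known to be repressed by MYC, 6 rose in sgCtl, 5 in sgXIST7 and 5 in sgXIST9, against 11.3%, 15.1% and 14.7% of all genes, and 1 fell in sgCtl and 1 in sgXIST7, near the 8.49% and 12.2% of all genes. These 10 had medians of 1.51, 0.76 and 0.96. NDRG1, which is also induced by HIF, had the largest change (5.17, 5.09 and 6.35), followed in sgCtl by the cell cycle inhibitor CDKN1A (2.54, 2.87 and 1.997). THBS1, an inhibitor of angiogenesis, rose by 2.28, 2.40 and 4.05. In sgXIST9 the number that rose was 3 without its hypoxia replicate 3 library, and 1 fell without its hypoxia replicate 2 or 3. The fall in sgCtl was lost without any of its normoxia libraries or its hypoxia replicate 3. In these bulk libraries fewer cells with an mRNA and less of it per cell cannot be told apart, and this holds for the members as well. The lists were written from general knowledge with earlier results of these data known.

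**Figure D5:**
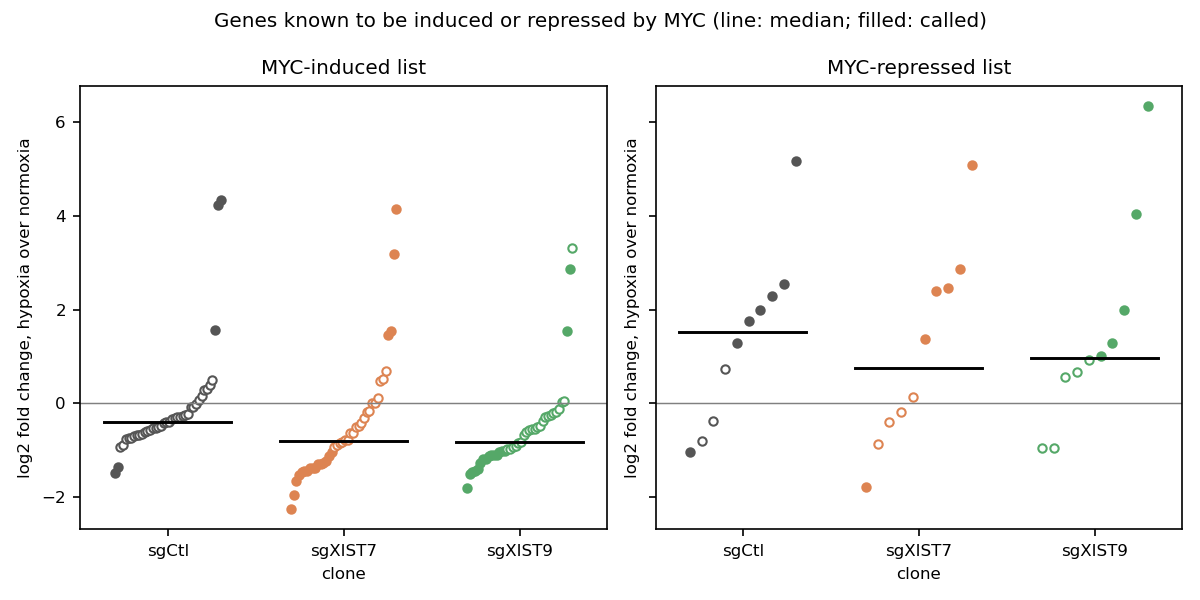
Log2 fold change in hypoxia against normoxia (y axis) of each tested gene of the MYC-induced list (left, 40 genes) and the MYC-repressed list (right, 10 genes) in the 3 clones, ordered by value, with filled circles for called genes and a line at the median. Medians lie at -0.40 to -0.83 on the left and at 0.76 to 1.51 on the right.

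The genes whose log2 CPM over the 18 libraries was most like that of a member were ranked among 9562 genes with a mean of at least 10 CPM. For MYC these were ARMC6 (Pearson r = 0.893), NME1, a nucleoside diphosphate kinase (0.868), and EIF5A, a translation factor (0.816). For MAX they were ATG13, which starts autophagy (0.970), RSRP1 (0.969) and GTF2H1, a subunit of TFIIH (0.966). For MXI1 they were PIK3C3, a lipid kinase (0.994), BSPRY (0.992) and UBXN6 (0.991). The libraries share clone, oxygen and sequencing depth, and the coefficients are given as a description.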

How the data were processed

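The authors prepared ribosomal RNA-depleted libraries with a stranded kit, used Trimmomatic for trimming and HISAT2 for alignment to hg38, and deposited featureCounts counts per gene. Versions, annotation release and the strand setting of the counting are not given in the sources used here. Of 28279 lines, 2 broken ones were left out. Counts of the 18 libraries were filtered (filterByExpr, minimum count 10, minimum total 15), scaled by TMM and fitted in 1 model of 6 groups with edgeR 4.0.16 (R 4.3.3, robust quasi-likelihood F-test, Benjamini-Hochberg adjustment over 14938 genes). A call needed an adjusted p below 0.01 and a log2 fold change beyond 1 in either direction. Fold changes used a prior count of 0.125. RPKM divided CPM by the deposited exon length in kilobases. Outside the hypoxia comparisons, members with an adjusted p under 0.05 and MYC were named, along with the list genes that had the largest changes. Alternatives were DESeq2 1.42.0, RLE and upper-quartile scaling, other filters and thresholds, the compared groups alone, a replicate block and leaving out libraries. Scripts were tested on simulated data. Members and lists were chosen with earlier results of these data known.

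Libraries with the same replicate number deviated together (every correlation over 0.1) in sgXIST7 against sgCtl in normoxia (0.148, 0.379 and 0.195) and in sgXIST9 against sgCtl in hypoxia (0.197, 0.520 and 0.566). No shared batch is given in the labels, and a replicate block changed no member call in these comparisons. For sgXIST7 in hypoxia only replicates 1 and 3 did so, against sgCtl (0.302 and 0.380, with 0.018 for replicate 2) and against sgXIST9 (0.294 and 0.492, with -0.068 for replicate 2). There the block added MXI1 to the calls against sgCtl (log2 1.16) and changed no member call against sgXIST9.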

Additional observations from a re-analysis of the deposited data

Results flagged for a closer look

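MYCL was singled out because its response to hypoxia differed between clones in a test of the difference itself, by 2.06 on the log2 scale (adjusted p = 0.0061, edgeR quasi-likelihood test) for sgXIST7 against sgCtl. The sgXIST7 libraries had at most 2.28 CPM in normoxia and at least 9.46 CPM in hypoxia, and those of sgCtl at most 4.18 and at least 5.56 CPM. The call was lost in 11 of the 18 fits without a library.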

How the results depend on the processing

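No called member value changed direction under any alternative. Of the alternative values of called members, 515 stayed past the thresholds and 31 did not. For sgXIST7 against sgCtl in normoxia, 0 members were called in place of 1 under upper-quartile scaling (MXD1 at 0.999), and 0 to 1 in fits without a library. In hypoxia 1 in place of 2 was called in a fit of the compared groups alone, 4 without the fold limit, and 1 to 3 in fits without a library. For sgXIST9 in hypoxia 1 in place of 0 passed without the fold limit. For sgXIST7 against sgXIST9 in hypoxia, 0 in place of 1 was called in a fit of those groups alone, 2 without the replicate 3 hypoxia libraries and 1 to 2 without a library. For the response of sgXIST7 against sgCtl, 0 in place of 1 was called with the compared groups alone, 2 without the replicate 3 hypoxia libraries, 2 at an adjusted p under 0.05 and 0 to 2 without a library. For sgXIST9, 1 in place of 0 (MYCL) was called by DESeq2, 2 (MYCL and MXI1) without the replicate 3 hypoxia libraries, 1 at an adjusted p under 0.05 and 0 to 1 without a library. MYC, never called, changed sign in fits without a library, ranging from -0.0856 to 0.28 for hypoxia in sgCtl, from -0.28 to 0.0823 for sgXIST7 against sgCtl in hypoxia (both without sgCtl hypoxia replicate 2), and from -0.31 to 0.0595 (without sgXIST9 hypoxia replicate 2) for the response of sgXIST7 against sgXIST9. With a replicate block, 5 in place of 6 members were called for hypoxia in sgXIST9 (MNT at 0.999949, a call also lost with DESeq2, RLE scaling and the compared groups alone, at 0.984, 0.9835 and 0.978) and 3 in place of 2 for sgXIST7 against sgCtl in hypoxia, where MXI1 was added (1.16, adjusted p = 0.0024). The 53 values of members with an adjusted p of 0.05 or more in the comparisons between clones included 12 that changed sign under an alternative, the largest of them 0.239 in size. The cause of these changes was not tested.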
